A study of Arabidopsis thaliana with 15 samples.

Results

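XTH16, XTH18, XTH19 and XTH21 are members of the xyloglucan endotransglucosylase/hydrolase (XTH) family of Arabidopsis thaliana. They were followed across 7 groups of sorted root cells. The genes were taken as the probe sets annotated to one of these 4 names and to no other gene. That gave 4 probe sets of the 22810 on the array, 1 for each gene, among 13356 genes that have a probe set of their own: 257203_at for XTH16 (AT3G23730), 253628_at for XTH18 (AT4G30280), 253608_at for XTH19 (AT4G30290) and 266066_at for XTH21 (AT2G18800). In the gene order of the reference annotation, XTH18 lies between XTH24 and XTH19, so that XTH18 and XTH19 are neighbours. They are also close paralogs, and whether their transcripts bind each other's probes was not tested here.

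Xyloglucan is a hemicellulose that coats and tethers cellulose microfibrils in the primary cell wall. XTH enzymes cut a xyloglucan chain and either join the cut end to another chain or hydrolyse it, and so remodel the wall of growing and differentiating cells. Brassinosteroids are plant steroid hormones that promote cell expansion, and XTH genes are among the cell wall genes they are known to induce. XTH18 and XTH21 are known from roots, where reduced function shortens root epidermal cells or the primary root. XTH19 is known from cell proliferation in wounded stems, which it shares with its paralog XTH20.

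The study asked how root vascular tissue responds to brassinolide (BL), the most active brassinosteroid. Roots 6 days old were moved to medium with 10 nM BL, digested to protoplasts with cell wall enzymes, and sorted by fluorescence, and 1 ATH1 array was made from each sorted sample after 2 rounds of RNA amplification. Cells that carried pAtHB15:YFP, described as provascular and called ATHB15 here, gave 2 arrays after 2 h of BL (ATHB15 BL 2 h, replicates 1 and 2) and 3 arrays without BL (ATHB15 control, replicates 1 to 3). Cells that carried pWOL:GFP, described as stele and called WOL here, gave 2 arrays (A and B) without BL and 2 arrays each after 0.5, 1, 2 and 4 h of BL. Each reporter marks the cells in which its promoter is active, so a line is defined by 1 promoter, and both lines passed through the same wall digestion, controls included. The labels name no mock transfer matched in time and do not say whether replicates came from separate plants, so a p-value may measure only technical spread. The line and the occasion of each array cannot be told apart, because the labels name no batch.

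Values are deposited signal intensities on a linear scale with a detection call (present, marginal or absent), and differences are on the log2(signal + 16) scale, which understates the change of dim genes. They were tested with limma over all 22746 probe sets that are not controls, and a probe set was called when its Benjamini-Hochberg adjusted p was under 0.05. The share of probe sets called present was 49.5% to 59.6% per array. On the first principal component, which held 49.7% of the variance, the ATHB15 arrays lay at 59.78 to 107.85, WOL control B at 21.41, WOL control A at -41.97 and the other 8 WOL arrays at -98.37 to -16.21. WOL control B therefore stands apart from the other WOL arrays, and the differences of the 4 genes from the WOL control are given with and without it. At the other end WOL BL 4 h A stood apart too, at -98.37, with the next WOL array at -65.89 and its own replicate at -16.21. The GAPDH 3' to 5' signal ratio, a sign of RNA quality, was 4.66 on that array and 1.09 to 3.84 on the other 14.

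Of the listed stele markers, the regulators PHV and LHW were measured, and both were called present on all 15 arrays. Both listed root hair genes that were measured, the expansins EXPA7 and EXPA18, were also detected on most arrays of cells sorted as stele. EXPA7 was called present on 2 of 5 ATHB15 arrays and 9 of 10 WOL arrays, and EXPA18 on 1 of 5 and 8 of 10. No listed marker of cortex, endodermis or root cap had a named probe set. In these bulk samples, fewer cells of a type and less RNA per cell cannot be told apart.

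XTH16 was called present on all 15 arrays. Its signal was 115.5 and 83.2 in ATHB15 BL 2 h and 139.1, 104.2 and 97.3 in ATHB15 control. In WOL cells it was 225.5 (A) and 138.0 (B) in the control, 397.1 and 327.3 at 0.5 h, 496.1 and 315.3 at 1 h, 437.0 and 324.1 at 2 h, and 127.4 and 350.6 at 4 h. XTH16 had the narrowest range of the 4 genes, from 83.2 to 496.1, and its lowest WOL arrays, replicate A at 4 h of BL and WOL control B, lay just below the highest ATHB15 control.

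XTH18 was detected on every WOL array and was near or below detection in ATHB15 cells. Its signal was 8.3 (absent) and 22.0 (present) in ATHB15 BL 2 h, and 74.8 (present), 57 (absent) and 42.3 (absent) in ATHB15 control. In WOL cells it was 744.6 and 225.4 in the control, 879.4 and 895.7 at 0.5 h, 1289.8 and 1117.2 at 1 h, 1983.6 and 734.1 at 2 h, and 1447.6 and 661.6 at 4 h. The range was 8.3 to 74.8 over the ATHB15 arrays and 225.4 to 1983.6 over the WOL arrays. How many of all probe sets split this way over the 15 arrays was not counted.

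XTH19 followed a similar course in WOL cells, with a difference in the BL-treated ATHB15 arrays. Its signal was 104.2 and 183.9 in ATHB15 BL 2 h, both present, and 67.2 (present), 36 (absent) and 37.1 (absent) in ATHB15 control. In WOL cells, where it was present throughout, it was 603.8 and 108.6 in the control, 1049.2 and 1051.2 at 0.5 h, 1401.3 and 933.6 at 1 h, 1512.6 and 586.2 at 2 h, and 903.4 and 617.0 at 4 h. WOL control B, at 108.6, lay within the range of the BL-treated ATHB15 arrays, and the other 9 WOL arrays lay at 586.2 and above.

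XTH21 was present on all WOL arrays and on 3 of 5 ATHB15 arrays. Its signal was 46.8 and 46.5 in ATHB15 BL 2 h, both present, and 213.9 (present), 33.2 (absent) and 51.5 (absent) in ATHB15 control. In WOL cells it was 978.0 and 447.9 in the control, 1589.2 and 1753.7 at 0.5 h, 1857.3 and 1154.9 at 1 h, 2735.8 and 1324.5 at 2 h, and 2207.0 and 1354.1 at 4 h. ATHB15 control 1 stood well above the other ATHB15 arrays, and the lowest WOL array was control B, at 447.9.

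**Figure D1:**
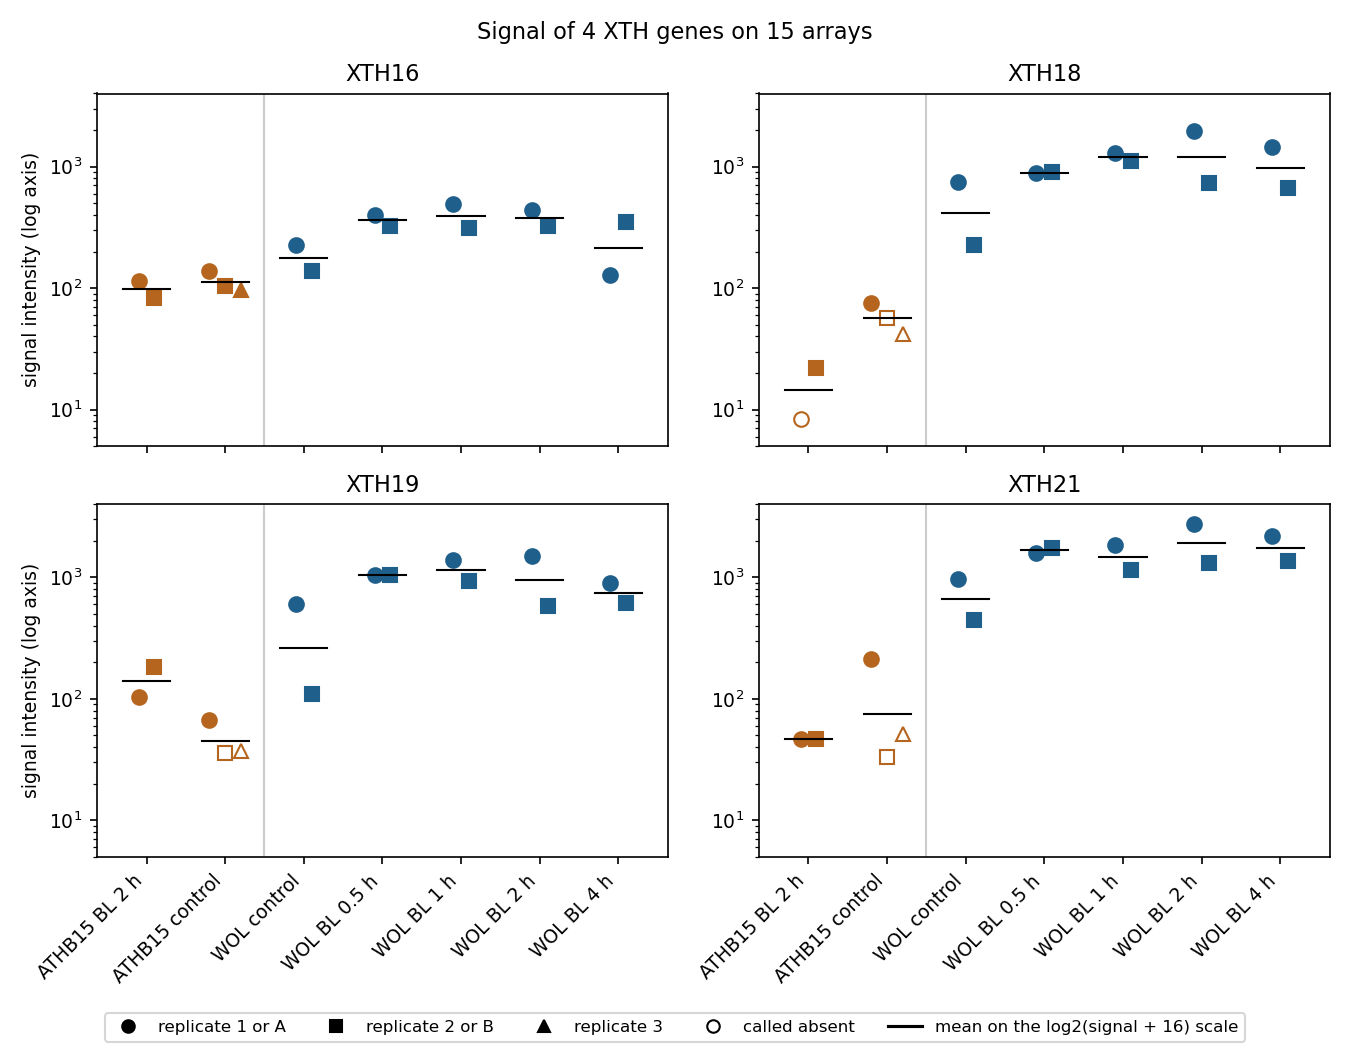
Signal of XTH16, XTH18, XTH19 and XTH21 on each of the 15 arrays (log axis), with ATHB15 groups left of the line and WOL groups right of it. Symbols give the replicate, open symbols are arrays called absent, and bars are group means on the log2(signal + 16) scale. XTH18 spans 8.3 to 74.8 in ATHB15 cells against 225.4 to 1983.6 in WOL cells, while XTH16 spans 83.2 to 139.1 against 127.4 to 496.1.

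The first comparison asked how provascular and stele cells differed in these genes after 2 h of BL. All 4 genes were lower in ATHB15 BL 2 h than in WOL BL 2 h and passed the test, with adjusted p between 0.000113 and 0.0143 (limma). In the same comparison 8.36% of all probe sets were called lower and 15% were called in either direction. The arrays of the 2 groups did not overlap for any of the 4 genes, which held in the same direction for 26.8% of all probe sets. XTH18 fell by 5.33 ± 0.56 on the log2 scale (SE). It was near or below detection in ATHB15 BL 2 h, so no fold is given. XTH21, present on all 4 arrays, fell by 4.94 ± 0.62, or 30.7-fold, and ranked 23rd among the 22746 probe sets ordered from the most negative difference. XTH19 fell by 2.63 ± 0.62, or 6.19-fold, and ranked 602nd. XTH16 fell by 1.78 ± 0.43, or 3.44-fold, and ranked 1420th. The median difference of the 4 genes was -3.78, against 0.02 for all probe sets. An unadjusted p under 0.05 was reached by all 4 genes and by 28.9% of all probe sets. The 4 genes were chosen with earlier results of these data known, so here and below the shares of all probe sets are a description.

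The calls of XTH18 and XTH21 held whichever single array was left out, with values of -6.04 to -4.63 and -5.46 to -4.42. The calls of XTH16 and XTH19 did not. Without WOL BL 2 h A their adjusted p was 0.107 and 0.127, and without ATHB15 BL 2 h replicate 2 it was 0.123 and 0.052. XTH19 also missed the threshold without ATHB15 BL 2 h replicate 1 (0.083). With the UBQ 3' to 5' ratio as a covariate, the values of XTH16 and XTH19 were -1.97 and -2.32 with adjusted p of 0.102 and 0.167. Centring each array on its median moved the median of all probe sets in this comparison to 0.21 and turned the split of calls to 2284 higher and 1671 lower, against 1513 higher and 1902 lower as deposited. All 4 genes were still called under that scaling, from -5.15 for XTH18 to -1.59 for XTH16.

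The untreated cells gave the same comparison without hormone. In ATHB15 control against WOL control, XTH21 fell by 2.89 ± 0.56 (adjusted p = 0.0145, limma) and XTH18 fell by 2.56 ± 0.51 (0.0167). Both were called absent on 2 of 3 ATHB15 control arrays, so no fold is given. XTH19 stood at -2.18 ± 0.57 and did not pass the threshold (0.0549). XTH16 stood at -0.59 ± 0.40 (0.520), and its arrays overlapped. The count is therefore 2 of 4 called lower, where 2.69% of all probe sets were called lower. The arrays of XTH18, XTH19 and XTH21 did not overlap between the lines, as was so in the same direction for 18.1% of all probe sets. Centring each array on its median moved the median of all probe sets here from -0.03 to 0.24 and the split of calls from 52 higher and 611 lower to 109 higher and 377 lower, and XTH18 and XTH21 were still called.

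These calls turned on single arrays and settings. XTH19 passed with the filter on detection (0.0347), with an intensity trend in the variance (0.0338), with the GAPDH ratio as a covariate (0.0441) and without either of the WOL BL 2 h arrays (0.0478). With the GAPDH covariate XTH21 did not pass (0.0638), so the count stayed at 2 with a different pair of genes. Without WOL control B, XTH18 stood at -3.38, XTH19 at -3.34, XTH21 at -3.44 and XTH16 at -0.91. Without WOL control A, XTH18 stood at -1.73, XTH19 at -1.02 and XTH21 at -2.34. Either way 1 WOL control array is left, so only values are given. No member was called without ATHB15 control 2, where XTH18 and XTH21 had adjusted p of 0.0579 and 0.0603 (limma). None was called without ATHB15 control 3 either, where they had 0.0583 and 0.0532. Calls were lost generally in these 2 settings: 223 and 342 of 22746 probe sets were called, against 663 with all arrays.

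**Figure D2:**
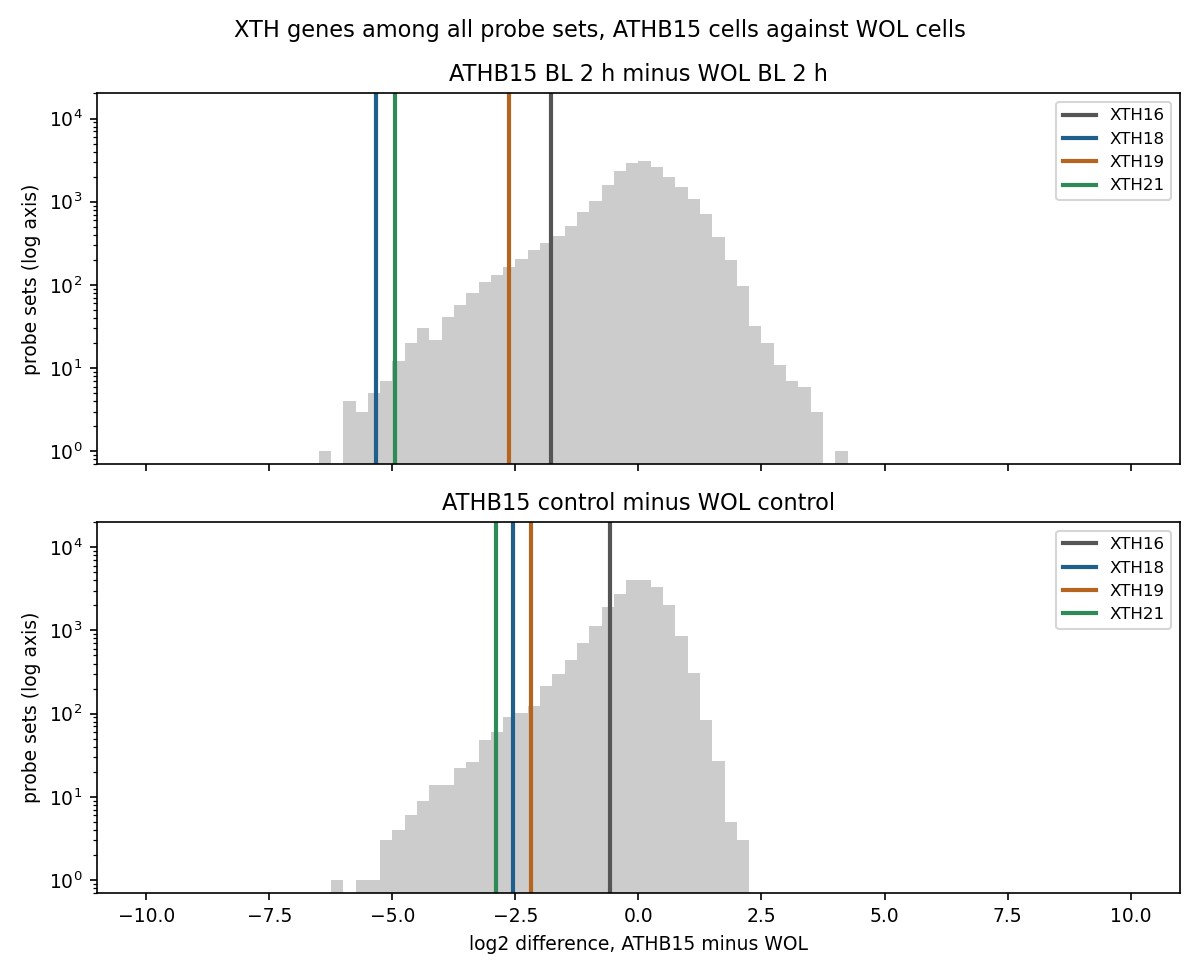
Histograms of the log2 difference between ATHB15 and WOL cells over all 22746 probe sets (log count axis), after 2 h of BL (top) and without BL (bottom), with the 4 XTH genes as vertical lines. After BL, XTH18 (-5.33) and XTH21 (-4.94) lie in the far lower tail, and XTH16 (-1.78) lies nearest to the centre in both panels.

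The root hair markers were also lower in ATHB15 cells, and passed the test with BL but not without it (adjusted p = 0.217 for EXPA7 and 0.141 for EXPA18, limma). EXPA7 and EXPA18 together gave a signal of 13.7 to 150.6 in BL-treated ATHB15 cells, against 510.5 to 993.7 in WOL BL 2 h. Without BL they gave 10.2 to 110.5 in ATHB15 cells, against 166.3 to 598.7 in WOL cells. In the BL-treated cells both markers were called lower, as EXPA7 fell by 3.18 (adjusted p = 0.0208, limma) and EXPA18 fell by 2.91 (0.0181). In that comparison 8.36% of all probe sets were called lower. Neither marker was called when ATHB15 BL 2 h replicate 1 or either of the WOL BL 2 h arrays was left out (adjusted p 0.0517 to 0.170). The stele regulators PHV and LHW together gave 2298.7 to 3342.3 in BL-treated ATHB15 cells, against 1332.9 to 1519.9 in WOL BL 2 h. LHW set most of this difference, at 1745.2 and 2291.0 against 669.3 and 894.5. PHV overlapped, at 553.5 and 1051.3 against 663.6 and 625.4, and neither regulator was called. The part of other cell types in the XTH differences between lines was not tested.

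The second comparison was the time course of BL in stele cells. All 4 genes had a higher mean at every time than in the WOL control, and none passed the test, as no probe set did at any time (0% called). The values at 0.5, 1, 2 and 4 h minus control were 1.94, 2.06, 1.79 and 1.46 for XTH19 (SE 0.62) and 1.08, 1.51, 1.52 and 1.22 for XTH18 (SE 0.56). For XTH21 they were 1.31, 1.12, 1.50 and 1.36 (SE 0.62), and for XTH16 they were 0.97, 1.09, 1.03 and 0.25 (SE 0.43). Adjusted p ranged from 0.516 to 0.902 (limma) over these 16 values. Without WOL control B the values in the same order were 0.78, 0.90, 0.63 and 0.30 for XTH19, 0.25, 0.68, 0.69 and 0.39 for XTH18, and 0.76, 0.58, 0.95 and 0.81 for XTH21. For XTH16 they were 0.64, 0.77, 0.70 and -0.075. An unadjusted p under 0.05 was reached by 2, 3, 4 and 3 of the 4 genes at 0.5, 1, 2 and 4 h, against 9.04%, 6.64%, 6.62% and 8.37% of all probe sets. Over the 4 genes the median value was 1.19, 1.32, 1.51 and 1.29 in the order of the times, against -0.08, -0.09, -0.11 and -0.05 over all probe sets. The 4 comparisons share the same 2 control arrays, so their values are set side by side and are not separate evidence.

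Array by array, the treated cells lay mostly above the controls. At 0.5 h and at 1 h both BL arrays lay above both control arrays for all 4 genes, as was so for 18.3% and 13.9% of all probe sets. At 2 h this held for XTH16 and XTH21 (12.1% of all probe sets), and at 4 h for XTH19 and XTH21 (13.1%). Against WOL control A alone, the higher control for each of the 4 genes, 8 of 8 BL arrays were higher for XTH21, 7 of 8 for XTH16 and XTH19, and 6 of 8 for XTH18. The arrays that were not were XTH16 at 4 h A, XTH19 at 2 h B, and XTH18 at 2 h B and 4 h B. The share of all probe sets with such counts against WOL control A was not computed, so these counts have no background.

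The mean of the 4 BL times minus the control was 1.81 ± 0.49 for XTH19, 1.33 ± 0.44 for XTH18, 1.32 ± 0.49 for XTH21 and 0.83 ± 0.34 for XTH16 (SE), with adjusted p from 0.405 to 0.465 (limma) and unadjusted p from 0.00232 to 0.0289. All 4 had an unadjusted p under 0.05, as did 9.98% of all probe sets, and 0% were called. XTH19 ranked 20th from the most positive of 22746, XTH18 124th, XTH21 126th and XTH16 751st. All 8 BL arrays lay above both controls for XTH21 alone, as for 1.9% of all probe sets. WOL control B set much of this size. Without it the 4 values were 0.65 for XTH19, 0.50 for XTH18, 0.77 for XTH21 and 0.51 for XTH16, and without WOL control A they were 2.97, 2.16, 1.87 and 1.16, still with none called (adjusted p 0.0609 to 0.236).

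The means of the root hair markers were also higher than in the WOL control at each time, and neither marker was called at any time, with overlapping arrays from 1 h on. Their summed signal was 598.7 on WOL control A and 166.3 on WOL control B. After 0.5 h of BL it was 1205.9 to 1244.8, after 1 h 428.6 to 1098.9, after 2 h 510.5 to 993.7, and after 4 h 264.7 to 647.6. PHV and LHW summed to 1344.3 on WOL control A and 2390.2 on WOL control B, and to 745.2 to 1738.5 over the 8 BL arrays. Thus WOL control B was low in all 4 XTH genes and in both root hair markers, and high in the stele sum, mainly through LHW. LHW was 1736.9 on that array and 461.0 to 954.2 over the 8 BL arrays. PHV was 653.3 on that array, within its range of 284.2 to 784.3 over the BL arrays. The GAPDH ratio was 2.71 and 4.66 on WOL controls A and B and 1.24 to 1.47 at 0.5 h, and with this ratio as a covariate XTH18 at 0.5 h stood at -0.11. The other 3 genes stayed positive with it. Over all settings other than leaving out 1 array, their lowest 0.5 h values were 0.81 for XTH16, 0.72 for XTH19 and 1.25 for XTH21. The part of other cell types and of RNA quality in the XTH values was not tested beyond this.

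Between the early and the late BL times none of the 4 genes passed the test, and no probe set did (0%). The mean of 2 and 4 h minus the mean of 0.5 and 1 h was -0.39 ± 0.31 for XTH16, 0.08 ± 0.40 for XTH18, -0.38 ± 0.44 for XTH19 and 0.21 ± 0.44 for XTH21 (SE), with adjusted p of 0.978 and above (limma) and unadjusted p of 0.221 and above, so 0 of the 4 were under 0.05, against 5.15% of all probe sets. The 95% intervals reached from -1.32 to 1.15 over the 4 genes, so that changes of about 2-fold between early and late times were not excluded. A moderated F test for any change over the course called none of the 4 and no other probe set (0%), with 1 of the 4, XTH19, at an unadjusted p under 0.05 (0.0293), against 5.72% of all probe sets.

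The third comparison was 2 h of BL in provascular cells. None of the 4 genes was called, where 1.11% of all probe sets were. XTH18 and XTH19 differed in sign. XTH19 stood at 1.34 ± 0.57 (SE, adjusted p = 0.306, limma), with both BL arrays above all 3 controls, as was so for 15% of all probe sets. XTH18 stood at -1.26 ± 0.51 (0.279), with both BL arrays below all 3 controls, as was so for 16.2%. XTH18 was called absent on 1 of 2 BL arrays and 2 of 3 controls and XTH19 on 0 of 2 and 2 of 3, so both values rest on signals near detection. XTH21 stood at -0.54 ± 0.56 (0.754), which was 0.12 without ATHB15 control 1, its highest ATHB15 array. XTH16 stood at -0.17 ± 0.40 (0.915). The unadjusted p was under 0.05 for XTH18 (0.0266) and XTH19 (0.0326), as for 13.7% of all probe sets. The summed root hair markers were 13.7 to 150.6 in ATHB15 BL 2 h and 10.2 to 110.5 in ATHB15 control, and the UBQ ratio reached 5.99 and 9.07 in ATHB15 BL 2 h, above the 4.01 to 4.85 of the ATHB15 controls. Their part in these values was not tested.

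The difference of the 2 h BL change, ATHB15 minus WOL, tested whether the lines responded differently. It was -2.78 ± 0.76 for XTH18 (SE, adjusted p = 0.150, limma), -2.04 ± 0.83 for XTH21 (0.343), -1.19 ± 0.59 for XTH16 (0.446) and -0.45 ± 0.84 for XTH19 (0.888). None was called, and 0.127% of all probe sets were. Unadjusted p was under 0.05 for XTH18 (0.00244) and XTH21 (0.0277), as for 12% of all probe sets. XTH18 was called without WOL control A (-3.60, adjusted p = 0.0477) and stood at -1.95 without WOL control B (0.558). Without WOL control B, XTH21 stood at -1.50, XTH16 at -0.87 and XTH19 at 0.71. A response of different size in the 2 lines is thus not shown for any of the 4 genes, and the interval for XTH19, from -2.25 to 1.35, leaves a wide range.

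**Figure D3:**
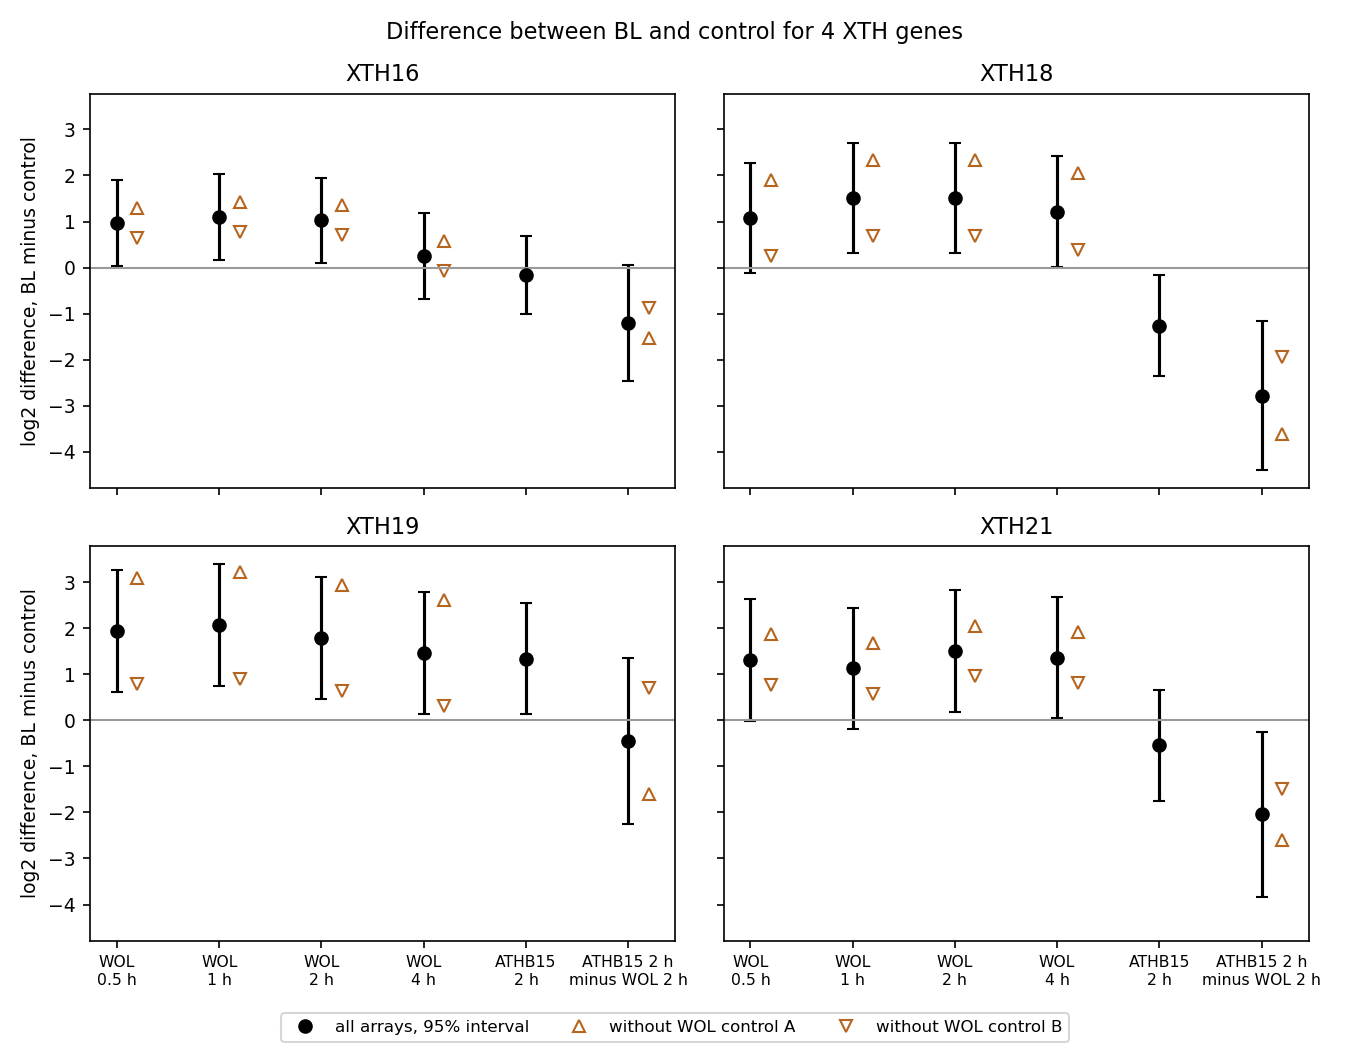
Log2 difference between BL and control for each gene at 4 times in WOL cells and at 2 h in ATHB15 cells, and the ATHB15 minus WOL difference of the 2 h change. Points with bars are the fitted value and its 95% interval over all arrays, and triangles leave out 1 WOL control array. The XTH19 values at 0.5 to 4 h (1.46 to 2.06) lie between 0.30 and 0.90 without WOL control B and between 2.61 and 3.22 without WOL control A.

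Ordered by group mean on the log2(signal + 16) scale, the 5 WOL groups stood above both ATHB15 groups for all 4 genes, and the WOL control was the lowest WOL group each time. XTH16 ran WOL BL 1 h, 2 h, 0.5 h, 4 h, WOL control, ATHB15 control and ATHB15 BL 2 h, and XTH18 ran WOL BL 2 h, 1 h, 4 h, 0.5 h, WOL control, ATHB15 control and ATHB15 BL 2 h. XTH21 ended in the same 3 groups after WOL BL 2 h, 4 h, 0.5 h and 1 h. XTH19 ran WOL BL 1 h, 0.5 h, 2 h, 4 h and WOL control, and then had ATHB15 BL 2 h above ATHB15 control. The 4 WOL BL groups were not separated for any gene: each step between neighbours among them had a 95% interval that spanned 0. For XTH16 no step in the order had an interval clear of 0. For XTH21 the 1 step clear of 0 was that from ATHB15 control to WOL control, at 2.89 (1.69 to 4.10). For XTH18 the steps clear of 0 were the same one, at 2.56 (1.46 to 3.65), and that from ATHB15 BL 2 h to ATHB15 control, at 1.26 (0.17 to 2.35). For XTH19 they were ATHB15 control to ATHB15 BL 2 h, at 1.34 (0.13 to 2.55), and WOL control to WOL BL 4 h, at 1.46 (0.13 to 2.78). These intervals are not adjusted for the number of steps, and the order itself was read from the values.

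Within the WOL groups, the spread between arrays A and B was itself shared by 3 of the genes. For XTH18, A minus B on the log2 scale was 1.66 in the control and then -0.03, 0.20, 1.41 and 1.11 along the 4 BL times. In the same order, it was 2.31, -0.0027, 0.58, 1.34 and 0.54 for XTH19, and 1.10, -0.14, 0.68, 1.04 and 0.70 for XTH21. XTH16 differed in that its A array was the lower one at 4 h, by 1.35. In the control the A minus B difference of XTH19 was above that of 99.5% of all probe sets, and at 2 h that of XTH18 was above 98.7%. For XTH18 and XTH19 the largest of these spreads was above each of the gene's own BL differences, and for XTH21 it was below each of them.

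As a description over the 10 WOL arrays, the log2 values of XTH18, XTH19 and XTH21 went together. Pearson's r was 0.94 between XTH18 and XTH19, 0.93 between XTH18 and XTH21 and 0.92 between XTH19 and XTH21, with Spearman's rho of 0.81, 0.81 and 0.79. Without the 2 arrays farthest from the median of the first gene of a pair, r was 0.73, 0.65 and 0.63. With XTH16, r was 0.46 for XTH18, 0.66 for XTH19 and 0.49 for XTH21. Over the 8 BL arrays alone r was 0.69 to 0.79 among XTH18, XTH19 and XTH21, and -0.09 to 0.35 with XTH16. The values of a pair share their array, its cells and its scaling, WOL control B is low in all 4 genes, and probes of the paralogs XTH18 and XTH19 may share transcripts. Over all 15 arrays the lines form separate groups, and no r is given.

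The genes whose pattern over the 10 WOL arrays was most like each member were found by Pearson's r among 6936 probe sets with 1 gene that were called present on at least 5 of these arrays. For XTH16 they were AT4G28650 (0.94), AT1G15140 (0.94), AT5G07030 (0.93), AT1G64650 (0.93) and AT2G30150 (0.93). For XTH18 they were AT1G14550 (0.98), AT2G43590 (0.96), AT1G51850 (0.96), RALFL22 (0.96), a gene for a RALF-like signalling peptide, and AT3G44190 (0.95). For XTH19 they were AT3G49880 (0.98), AT5G45840 (0.98), GT2 (0.98), AT5G44020 (0.97) and AT5G38700 (0.96). For XTH21 they were AT3G02880 (0.95), IDH-V (0.95), NDB2 (0.94), AT2G43590 (0.94) and AT5G38700 (0.94). AT2G43590 stood in the lists of both XTH18 and XTH21, and AT5G38700 in those of both XTH19 and XTH21. Among the candidates, r passed 0.8 for 1.28% with XTH16, 3.52% with XTH18, 4.05% with XTH19 and 2.96% with XTH21. Ranking by Spearman's rho kept 1 of the 5 names for each member, so the names are a description of these arrays.

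Of the 33 listed XTH genes, 10 had a probe set with 1 gene name, so 6 others could be set beside the 4. In ATHB15 BL 2 h against WOL BL 2 h, 1 of the 6 was called, where 15% of all probe sets were. XTH27, known from vein differentiation in leaves, had 489.7 and 337.4 in ATHB15 BL 2 h and 922.5 and 981.9 in WOL BL 2 h, and fell by 1.19 ± 0.38 on the log2 scale (SE, adjusted p = 0.0475, limma). That call was lost when any 1 of the 4 compared arrays was left out, with adjusted p of 0.0643 to 0.278, without any 1 of 7 other arrays (0.0514 to 0.0622) and with median centring (0.0753). XTH20, the paralog of XTH19, had 13 (absent) and 41.1 in ATHB15 BL 2 h and 59.3 and 87.5 in WOL BL 2 h, a difference of -1.12 (0.144). XTH33, a member with a membrane anchor, was called absent on all 5 ATHB15 arrays and present on 6 of 10 WOL arrays, where its signal was 3.5 to 235.7. XTH32 was present on 2 of 15 arrays, and XTH26, known from root hairs, and XTH29 were called absent on all 15. In each of the other comparisons 0 of the 6 were called by limma, with 6 of 54 values at an unadjusted p under 0.05, where the share of all probe sets was 5.15% to 15.5% by comparison. The mean of the 4 WOL BL times minus the control was 0.83 to 1.81 for XTH16, XTH18, XTH19 and XTH21, and lay between -0.24 (XTH26) and 0.58 (XTH27) for the other 6. Whether the 4 genes responded more than the rest of the family was not tested.

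For the synthesis of xyloglucan, 4 of 16 listed genes were measured, all of them glucan synthases of the CSLC family, which make the glucan backbone. CSLC4 had 334.4 and 251.1 in ATHB15 BL 2 h and 1104.0 and 943.3 in WOL BL 2 h, and fell by 1.76 ± 0.50 (SE, adjusted p = 0.0293, limma). CSLC5, CSLC6 and CSLC12 were not called, at -0.11, 0.63 and -0.65, where 8.36% of all probe sets were called lower. In all other comparisons 0 of the 4 were called by limma, with 3 of 36 values at an unadjusted p under 0.05, against the same 5.15% to 15.5% of all probe sets, and the mean of the BL times in WOL cells stood at 0.72 for CSLC4 with an adjusted p of 0.541. The call of CSLC4 was lost without any 1 of the 4 compared arrays, with adjusted p of 0.0672 to 0.184. None of the 7 listed genes for the trimming and acetylation of xyloglucan had a named probe set.

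Of 15 listed genes of brassinosteroid signalling, BRL1 and BIM1 were measured. BRL1 encodes a receptor known from vascular cells, and BIM1 encodes a bHLH protein that acts with the transcription factor BES1. BIM1 had 260.6 and 215.1 in ATHB15 BL 2 h and 621.3 and 762.5 in WOL BL 2 h, and fell by 1.48 ± 0.37 (SE, adjusted p = 0.0165, limma), a call lost without any of 3 of the compared arrays (0.0592 to 0.123). BRL1 stood at 1.27 ± 0.43 in that comparison (adjusted p = 0.0599, limma), where 8.36% of all probe sets were called lower. In all other comparisons 0 of these 2 genes were called, with 7 of 18 values at an unadjusted p under 0.05, in comparisons that share control arrays and where 5.15% to 15.5% of all probe sets did so. In WOL cells, BRL1 stood at -1.03 ± 0.34 for the mean of the BL times minus the control (0.423). Its signal was 8.3 to 48.6 over the 8 BL arrays, 7 of them called absent, so this value rests on signals near detection. BRL1 was called present on 4 of 5 ATHB15 arrays and 3 of 10 WOL arrays. None of the 7 listed genes of brassinosteroid synthesis and turnover had a named probe set, so no other known BL target from that list can be set beside the XTH values.

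**Figure D4:**
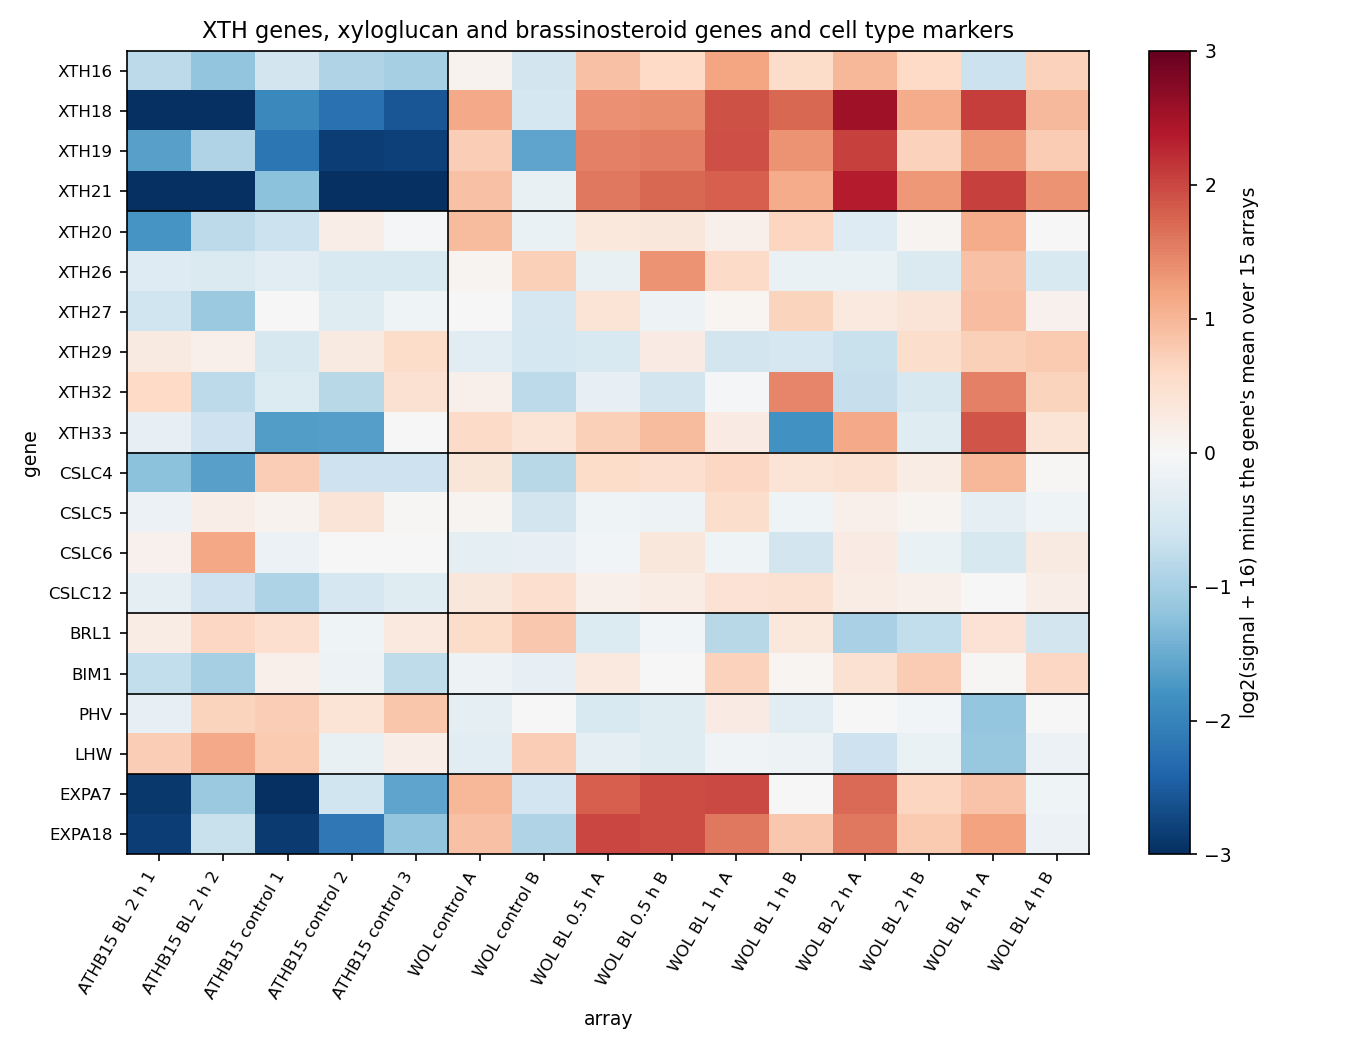
Log2(signal + 16) of each measured gene of the lists minus that gene's mean over the 15 arrays, with ATHB15 arrays on the left and WOL arrays on the right. Lines separate the 4 XTH genes, the other 6 XTH genes, xyloglucan synthesis, brassinosteroid signalling, stele markers and root hair markers, and colours are limited to -3 to 3. XTH18, XTH19, XTH21, EXPA7 and EXPA18 are low in ATHB15 cells and high in most WOL cells, and WOL control B is lower than WOL control A in all 5.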

How the data were processed

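The authors deposited signal intensity on a linear scale. One of their tables adds, per the file headers, a detection p-value per probe set and array, and a detection call is its other column type. Both deposited tables held the same intensity on 342150 of 342150 values, and the mean without the lowest and highest 2% was 250 on each array. For the software that made them, the sources used here give no name. The 64 control probe sets were left out. Of the rest, 13513 match 1 gene, 503 match more than 1, and the other 8730 are unnamed here.

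Differences of log2(signal + 16) were fitted with limma 3.58.1 in R 4.3.3, with 1 mean per group over 15 arrays. Tests are two-sided, and each comparison was adjusted over 22746 probe sets. All groups share 1 estimate of spread, which a lone array then borrows. The test was checked on simulated data. Named genes are the 4 members, any measured gene of the lists, and for each member the 5 genes most like it. The members and lists were chosen with earlier results of these data known. Other offsets, scalings, filters, covariates and left-out arrays were tried. The precision is limited by the number of arrays.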

Additional observations from a re-analysis of the deposited data

Results flagged for a closer look

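XTH18 and XTH21 were flagged because the BL arrays of ATHB15 and WOL lay on opposite sides of their control means after 2 h. The share of all probe sets that did so was not counted. Single arrays overlapped. For XTH18, WOL BL 2 h B (734.1) lay below WOL control A (744.6). For XTH21, the ATHB15 BL arrays (46.8 and 46.5) lay within the ATHB15 controls (33.2 to 213.9). For XTH18 both ATHB15 BL arrays lay 0.94 and 1.58 below the ATHB15 control mean on the log2 scale, and both WOL BL 2 h arrays lay 0.81 and 2.22 above the WOL control mean. The difference of the changes, ATHB15 minus WOL, was -2.78. For XTH21 both ATHB15 BL arrays lay 0.54 and 0.55 below their control mean, and both WOL BL 2 h arrays lay 0.98 and 2.02 above theirs, a difference of -2.04. Neither difference passed the limma test over all probe sets (adjusted p = 0.150 for XTH18 and 0.343 for XTH21). XTH21 also lost its direction in ATHB15 cells without ATHB15 control 1, at 0.12. Without WOL control B the difference of the changes was -1.95 for XTH18 and -1.50 for XTH21. XTH18 was called absent on 3 of 5 ATHB15 arrays and XTH21 on 2 of 5, so their changes in these cells rest on signals near detection.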

How the results depend on the processing

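Counts of called members kept to within 1.5 times of the reported count except in 3 comparisons. Leaving out 1 array, the count ranged from 0 to 3 for ATHB15 control minus WOL control (reported 2), from 2 to 4 for ATHB15 BL 2 h minus WOL BL 2 h (reported 4) and from 0 to 1 for the difference of the 2 h change (reported 0). An offset of 64 gave 1 for the controls, and the UBQ ratio as a covariate gave 1 for the controls and 2 for the treated lines. Directions that reversed were XTH18 at 0.5 h (-0.11) and XTH19 late minus early (0.29) with the GAPDH ratio as a covariate, and XTH19 in the difference of the 2 h change (0.052) with the UBQ ratio. Leaving out 1 array also turned directions, with ranges of -0.43 to 0.93 for XTH16 at 4 h, -0.28 to 0.43 for XTH18 and -0.047 to 0.47 for XTH21 late minus early, -0.37 to 0.036 for XTH16 and -0.99 to 0.12 for XTH21 in ATHB15 BL 2 h minus control, and -1.61 to 0.71 for XTH19 in the difference of the 2 h change. None of these values passed the test. The calls of XTH27, CSLC4, BIM1, EXPA7 and EXPA18 between the treated lines were lost with the UBQ ratio as a covariate (adjusted p 0.0948 to 0.401, limma), and those of XTH27 (0.112), CSLC4 (0.0800) and BIM1 (0.0563) with the GAPDH ratio. The cause was not tested.

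With the replicate block, the 32 member values within lines and for the difference of the 2 h change kept their direction and their side of the threshold. XTH18 in that difference stood at -2.94 (adjusted p = 0.155, limma). Over all probe sets the block left 75 calls in ATHB15 BL 2 h minus control, against 253. The labels do not say whether arrays of the same letter or number are paired, and the main fit does not pair them. Deviations of the same letter in WOL cells correlated at -0.19 to 0.42, with 4 of 10 over 0.1. Those of the same number in ATHB15 cells correlated at 0.01. These values do not settle whether the arrays are paired. Comparisons between lines share no pairing. The F test has no direction and was counted alone. Dim signals in ATHB15 cells limit the folds of XTH18, XTH19 and XTH21.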
